A study of Mus musculus with 9 samples.

Results

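Transcript levels of 9 skin kallikreins (Klk5, Klk6, Klk7, Klk8, Klk9, Klk10, Klk11, Klk13 and Klk14) and of Spink5, the gene of their inhibitor LEKTI, were examined by RNA sequencing of mouse ear dermis, in 9 libraries. The genes were chosen by symbol, and all 10 were found among the 52550 genes of the deposited count table. All mice were C57BL/6 animals (C57BL/6J in the study's methods) of 8 weeks without a genetic change, with 3 libraries in each of 3 groups. Control mice (VAS+H2O) had vaseline on the skin for 5 days and ddH2O by gavage. Model mice (IMQ+H2O) had imiquimod cream, which induces psoriasis-like inflammation, for 5 days and ddH2O by gavage. IMQ+XYF mice received the same cream and a daily gavage of 200 µl of the herbal decoction Xiao-Yin-Fang (XYF) at 23.3 mg/g. Gavage was given for 10 days in every group and began 5 days ahead of the topical treatment. The study asked what the decoction changes in inflamed skin. According to its methods RNA came from skin of more than 1 mouse, and whether each library was a pool is not clear from them, so p-values measure the spread between libraries only.

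The tissue kallikreins described here are secreted serine proteases found in the outer epidermis. Keratinocytes of the granular layer release them as inactive proenzymes, and the active enzymes cut the corneodesmosomes that hold dead corneocytes together, so that the surface sheds. LEKTI, encoded by Spink5, binds and blocks several of them, and loss of this inhibitor causes Netherton syndrome, in which the skin barrier breaks down and the skin is inflamed. Active kallikreins also cut PAR2, a receptor on keratinocytes and nerves, and so can raise inflammatory signals.

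The 9 kallikrein genes lay in 1 cluster on the forward strand of chromosome 7 (GRCm38, chr7:43690418-43851181), in the order Klk14, Klk13, Klk11, Klk10, Klk9, Klk8, Klk7, Klk6 and Klk5, over 160.764 kb. Bases upstream of 3 kallikreins are shown because their genes carried the results: Klk14 and Klk6 were the members that passed the test, and Klk7 had the highest level per length. The sequences are from RefSeq (GRCm38.p6, forward strand, 5′ to 3′), end before the first annotated base of each gene, and have GC boxes (GGGCGG or its reverse complement CCGCCC) in capitals. The positions are chr7:43690168-43690417 for Klk14, chr7:43811044-43811293 for Klk7 and chr7:43824294-43824498 for Klk6.
Klk14: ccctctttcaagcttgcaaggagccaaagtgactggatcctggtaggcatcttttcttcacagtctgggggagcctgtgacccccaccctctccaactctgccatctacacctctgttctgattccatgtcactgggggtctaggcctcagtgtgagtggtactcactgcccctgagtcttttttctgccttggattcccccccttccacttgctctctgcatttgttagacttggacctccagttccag
Klk7: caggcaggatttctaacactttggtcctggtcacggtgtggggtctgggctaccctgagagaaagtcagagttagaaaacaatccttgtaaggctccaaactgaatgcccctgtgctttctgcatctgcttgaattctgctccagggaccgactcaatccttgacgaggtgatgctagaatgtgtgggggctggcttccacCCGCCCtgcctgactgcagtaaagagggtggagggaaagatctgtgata
Klk6: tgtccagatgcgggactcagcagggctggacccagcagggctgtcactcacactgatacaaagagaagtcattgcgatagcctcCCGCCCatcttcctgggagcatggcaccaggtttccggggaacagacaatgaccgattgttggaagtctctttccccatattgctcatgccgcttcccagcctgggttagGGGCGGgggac

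In the 250 bases upstream of 11 RefSeq starts of the kallikreins, 5 motifs were searched on both strands. The letters TATAAA, the usual TATA box, and TGANTCA, bound by AP-1, matched in 0 of the 11, and were present upstream of 12.4% and 6.75% of all 32851 promoters. TTCNNNGAA (STAT) matched upstream of Klk10 alone, CCAAT upstream of Klk9 alone, and GGGCGG upstream of Klk7, Klk8 and both starts of Klk6, against 7.02%, 33.8% and 32.7% of all promoters. These motifs do not overlap one another in the sequences shown. A match describes letters only and was not tied to any change in level.

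The libraries held between 28756305 and 79836881 counts, and levels are given as counts per 1000000 reads (CPM) after TMM scaling, which equalises libraries by their bulk of unchanged genes. The label dermis did not exclude epidermal transcripts. Krt14, a keratin of basal keratinocytes, lay between 724 and 3367 CPM and Krt10, a keratin of differentiating keratinocytes, between 514 and 6179 CPM, beside the fibroblast genes Col1a1 (1038 to 4982 CPM) and Dcn (4547 to 6282 CPM). All 6 fibroblast, 6 basal, 10 differentiating and 7 stress keratinocyte markers were counted in every library. In such bulk samples, fewer cells of a type and less RNA per cell cannot be told apart. A pair of libraries stood apart for the genes described here. VAS+H2O replicate 3 was the lowest of the 9 libraries for 7 of the 9 kallikreins, and IMQ+XYF replicate 2 lay below the other IMQ+XYF libraries for 9 of the 10 genes.

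**Figure D1:**
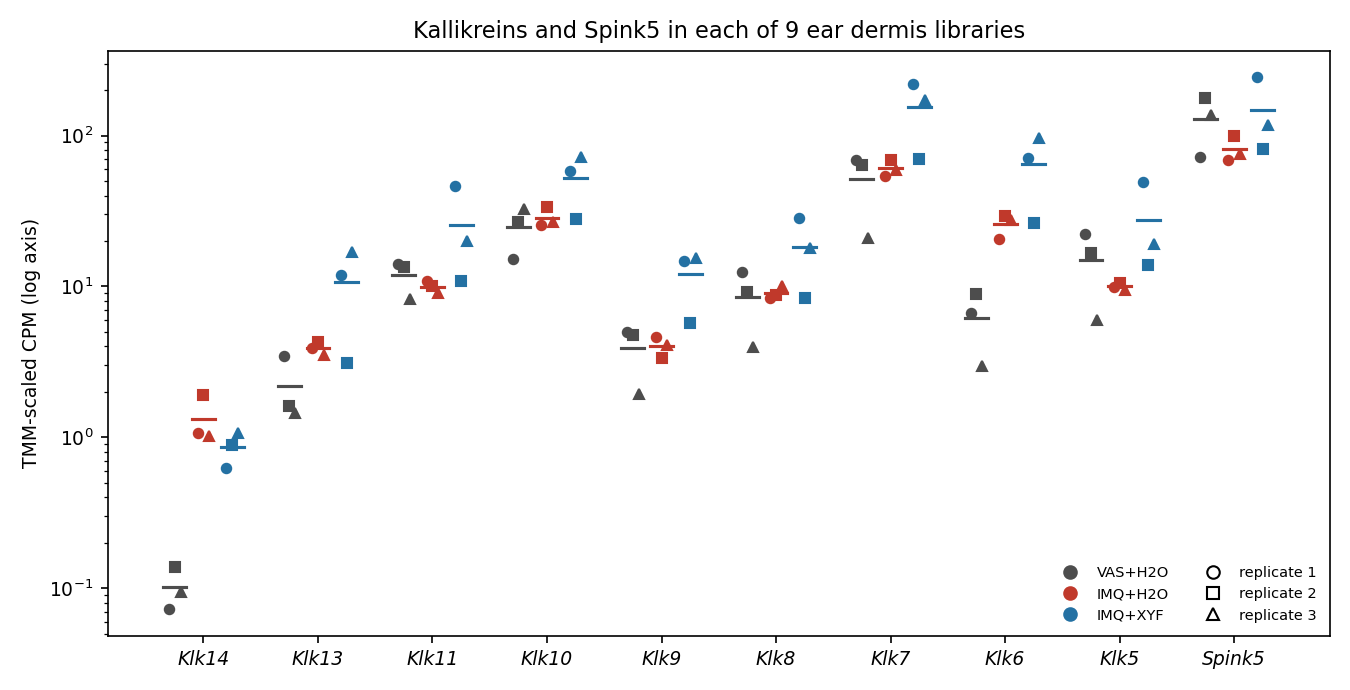
TMM-scaled CPM (log axis) of each gene in each of 9 libraries, in cluster order with Spink5 last; colour marks the group, shape the replicate number, and bars the group mean (n = 3). The IMQ+XYF points are spread, with replicate 2 (square) near the IMQ+H2O points, and Klk14 is low in all VAS+H2O libraries.

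To compare genes with each other, levels were divided by merged exon length (CPM per kilobase). On this scale Klk7, a chymotrypsin-like protease of the stratum corneum, had the highest mean in every group, at 27.01 ± 13.9 (SD, n = 3) in VAS+H2O, 32.0 ± 4.07 in IMQ+H2O and 81.1 ± 40.5 in IMQ+XYF. In IMQ+H2O, the group with the tightest libraries, Klk7 was followed by Klk10 (20.8 ± 3.14), Klk6 (17.1 ± 3.08), Spink5 (17.0 ± 3.36), Klk5 (7.50 ± 0.40), Klk11 (6.80 ± 0.61), Klk8 (5.88 ± 0.54), Klk9 (2.72 ± 0.42), Klk13 (1.70 ± 0.16) and Klk14 (1.05 ± 0.40). Klk10, Klk6 and Spink5 overlapped with their neighbours there, as did Klk5, Klk11 and Klk8, whereas the other steps were apart. In VAS+H2O and IMQ+XYF every neighbour in the order overlapped with the next, except Klk13 and Klk14. Klk6 was the member that moved furthest in this order, from the seventh place in VAS+H2O, at 4.11 ± 2.002 CPM per kilobase, to the second in IMQ+XYF, at 42.7 ± 23.5. The share of Klk7 in the summed level per length of the 9 kallikreins lay between 32.9% and 34.2% in the IMQ+H2O libraries and between 34.1% and 37.7% in IMQ+XYF. In the control libraries it was 39.9%, 37.1% and 21.4%, on both sides of the other groups. That of Klk6 was 3.81% to 6.56% in the control libraries, 15.7% to 19.4% in IMQ+H2O, without overlap, and 15.2% to 24.1% in IMQ+XYF.

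The spread within groups was uneven. The coefficient of variation of a member over 3 libraries had a median of 13.9% in IMQ+H2O, of 46.1% in VAS+H2O and of 54.9% in IMQ+XYF.

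Imiquimod raised 1 of the 10 genes, Klk14. Klk14, a trypsin-like protease of the stratum corneum, had 3, 5 and 7 counts in the VAS+H2O libraries and 31, 79 and 52 counts in IMQ+H2O. As levels these were 0.0728, 0.139 and 0.0938 CPM against 1.07, 1.92 and 1.01 CPM. All model libraries lay above all controls, and the lowest control count equalled the detection floor of 3 counts, which covers counting error only. The log2 fold change was 3.70 ± 0.44 (SE), a 13.0-fold rise (edgeR quasi-likelihood test with Benjamini-Hochberg adjustment over 22430 genes, adjusted p = 0.0161). A gene was called at an adjusted p of 0.05 or lower and an absolute log2 fold change of 1 or higher, and 0.646% of all tested genes were called higher. Without VAS+H2O replicate 3 the fold change was 3.64 and edgeR's adjusted p 0.0765. Klk14 had the lowest level per length of the 10 genes in every group.

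Klk6, a trypsin-like protease, was measured at 6.69, 8.98 and 2.97 CPM in VAS+H2O and at 20.6, 29.4 and 27.5 CPM in IMQ+H2O. The groups did not overlap, as for 3 members (Klk6, Klk13 and Klk14) against 15.1% of all tested genes in this direction. The log2 fold change of Klk6 was 2.07 ± 0.51 and did not pass in edgeR (adjusted p = 0.0814). It passed with the Wald test of DESeq2 (adjusted p = 0.00097), a test that called 2.15% of all genes higher, and in edgeR without IMQ+XYF replicate 2 (adjusted p = 0.0290). Klk13, another trypsin-like member, lay at 3.47, 1.61 and 1.46 CPM in the control and at 3.93, 4.27 and 3.53 CPM in the model, a difference of 0.85 ± 0.56 on the log2 scale that did not pass (edgeR adjusted p = 0.419).

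The remaining 7 genes did not pass the test for imiquimod. Klk5, which can activate the proenzymes of Klk7 and Klk14, was measured at 22.3, 16.5 and 5.99 CPM in VAS+H2O and 9.92, 10.6 and 9.54 CPM in IMQ+H2O. Klk7 was measured at 69.0, 63.6 and 20.9 CPM in VAS+H2O and 53.8, 69.0 and 59.0 CPM in IMQ+H2O. In both genes control replicate 3 lay below all model libraries, and for Klk5 the other control libraries lay above them, whereas for Klk7 they lay among them. Klk8, a trypsin-like protease, ranged from 3.98 to 12.4 CPM in the control and from 8.44 to 10.0 CPM in the model. The ranges were 1.94 to 4.97 and 3.37 to 4.62 CPM for Klk9, 15.3 to 32.8 and 25.4 to 33.5 CPM for Klk10, and 8.31 to 14.1 and 9.03 to 10.8 CPM for Klk11. All 4 overlapped. The log2 differences were -0.57 ± 0.54 for Klk5, 0.25 ± 0.48 for Klk7, 0.09 ± 0.48 for Klk8, 0.05 ± 0.44 for Klk9, 0.20 ± 0.36 for Klk10 and -0.26 ± 0.45 for Klk11. Those of Klk7, Klk8 and Klk9 turned to -0.13, -0.26 and -0.28 without VAS+H2O replicate 3, so no direction can be given for them. Without that library the differences were -0.96 for Klk5, 0.45 for Klk10, -0.47 for Klk11 and -0.62 for Spink5, and 1.72 for Klk6. Spink5 was measured at 72.5, 176 and 138 CPM in VAS+H2O and at 68.9, 99.3 and 75.4 CPM in IMQ+H2O. Its log2 difference of -0.67 ± 0.43 did not pass (edgeR adjusted p = 0.400), and the groups overlapped. Over the 10 genes the median log2 difference was 0.15, and over all tested genes it was -0.02.

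XYF was compared with water in mice that all received imiquimod. No member passed the test, as for nearly all genes: edgeR called 0.00892% of those tested. The number of members called was also 0 without IMQ+XYF replicate 2. Values were nonetheless higher in the group mean for 9 of the 10 genes, with a median log2 difference of 1.33 beside 0.01 over all tested genes, of which 11364 of 22430 were higher. An unadjusted p under 0.05 in edgeR was reached by 7 members (Klk5, Klk6, Klk7, Klk9, Klk10, Klk11 and Klk13), all higher, against 6.35% of all tested genes. The 10 genes were measured in the same libraries and largely moved together, so these are not separate pieces of evidence.

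Klk7 was measured at 220, 69.9 and 171 CPM in IMQ+XYF, beside 53.8, 69.0 and 59.0 CPM in IMQ+H2O. Replicates 1 and 3 stood far above the model libraries and replicate 2 just above the highest of them. The log2 difference was 1.34 ± 0.49 (edgeR adjusted p = 0.381). Klk9, like Klk7 a chymotrypsin-like enzyme, was measured at 14.8, 5.74 and 15.5 CPM in IMQ+XYF and at 4.62, 3.37 and 4.08 CPM in IMQ+H2O. It showed the greatest difference of the 10 genes, 1.58 ± 0.44 (edgeR adjusted p = 0.364), and was the member that DESeq2 called (adjusted p = 0.0305, 0.797% of all genes called higher). Klk5 was measured at 49.6, 13.9 and 19.1 CPM and Klk11, a trypsin-like member, at 46.0, 10.8 and 19.9 CPM in IMQ+XYF. Both lay above IMQ+H2O in all libraries, although for Klk11 replicate 2, at 10.84 CPM, barely exceeded the highest model library at 10.82 CPM, and differed by 1.46 ± 0.55 and 1.36 ± 0.46. Groups that did not overlap in this direction were thus seen for 4 members, against 9.22% of all tested genes. The sizes for Klk5 and Klk11 rested on replicate 1. Without IMQ+XYF replicate 1 the log2 difference was 0.72 for Klk5, 0.63 for Klk11, 0.99 for Klk7 and 1.40 for Klk9, and without IMQ+XYF replicate 2 it was 1.81, 1.75, 1.72 and 1.94.

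For the others the IMQ+XYF libraries overlapped with the model. Klk6 reached 70.9, 26.4 and 96.6 CPM, Klk8 28.4, 8.38 and 18.1 CPM, Klk10 58.0, 28.1 and 71.7 CPM and Klk13 11.98, 3.09 and 16.9 CPM. In each of them replicates 1 and 3 were the highest of all 9 libraries, and replicate 2 lay within or below the model range. Without replicate 2 the log2 differences were 1.72 for Klk6, 1.39 for Klk8, 1.21 for Klk10 and 1.91 for Klk13, and without replicate 1 they were 1.25, 0.55, 0.81 and 1.36. Klk14 was the exception, at 0.622, 0.895 and 1.07 CPM in IMQ+XYF (50, 44 and 66 counts), with a log2 difference of -0.63 ± 0.36 from the model that did not pass (edgeR adjusted p = 0.510). Its highest IMQ+XYF library lay just above the middle one of IMQ+H2O. Spink5 was measured at 243, 81.2 and 117 CPM, higher by 0.86 ± 0.43 on the log2 scale in the group mean (edgeR adjusted p = 0.461), with replicate 2 inside the model range. Without IMQ+XYF replicate 1 its difference was 0.29, and without replicate 2 it was 1.18. In replicate 1 the members other than Klk14 stood between 2.03 and 4.95 times the mean of the model, whereas in replicate 2 they stood between 0.79 and 1.43 times that mean.

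Against the vaseline control, edgeR called 2 of the 10 genes higher in IMQ+XYF skin, Klk6 and Klk14, and 0.695% of all tested genes. All 10 had higher group means, as had 10607 of 22430 tested genes. The median log2 difference was 1.35 beside -0.02 over all tested genes. An unadjusted p under 0.05 in edgeR was reached by 8 members, and by 4112 of all tested genes in either direction. This comparison shares its libraries with the comparisons above and is no independent evidence. Klk6 differed by 3.39 ± 0.53 on the log2 scale, 10.5-fold (edgeR adjusted p = 0.0285), and Klk14 by 3.07 ± 0.44, 8.42-fold (edgeR adjusted p = 0.0221). All IMQ+XYF libraries lay above all controls for both, as also for Klk7 and Klk9, against 11.7% of all tested genes. Klk7 (1.59 ± 0.49), Klk9 (1.63 ± 0.44) and Klk13 (2.30 ± 0.58) did not pass in edgeR (adjusted p = 0.133, 0.0974 and 0.0792), and with Klk10 (1.08 ± 0.36, adjusted p = 0.156) they passed in DESeq2, which called 1.75% of all genes higher. Klk5 (0.88 ± 0.54), Klk8 (1.10 ± 0.48) and Klk11 (1.10 ± 0.46) passed in neither (edgeR adjusted p = 0.436, 0.264 and 0.244). Spink5 differed by 0.19 ± 0.42 (edgeR adjusted p = 0.865).

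The number called here rested on single libraries. It was 7 without IMQ+XYF replicate 2 (Klk6, Klk7, Klk9, Klk10, Klk11, Klk13 and Klk14), and 0 without any 1 of the VAS+H2O libraries, without IMQ+XYF replicate 1 or without IMQ+XYF replicate 3. Without IMQ+H2O replicate 2, which enters through the shared spread, it was 1 (Klk14). Calls over all genes shifted as well, from 270 in the main fit to 592 when IMQ+XYF replicate 2 was dropped. They fell to 115, 12 and 24 when VAS+H2O replicates 1, 2 and 3 were dropped in turn. Dropping IMQ+XYF replicate 1 gave 25, dropping IMQ+XYF replicate 3 gave 38, and dropping IMQ+H2O replicate 2 gave 93. The swing was thus not particular to the kallikreins. The log2 difference of Klk6 stayed between 2.98 and 3.81 and that of Klk14 between 2.88 and 3.31 when any 1 library was left out.

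**Figure D2:**
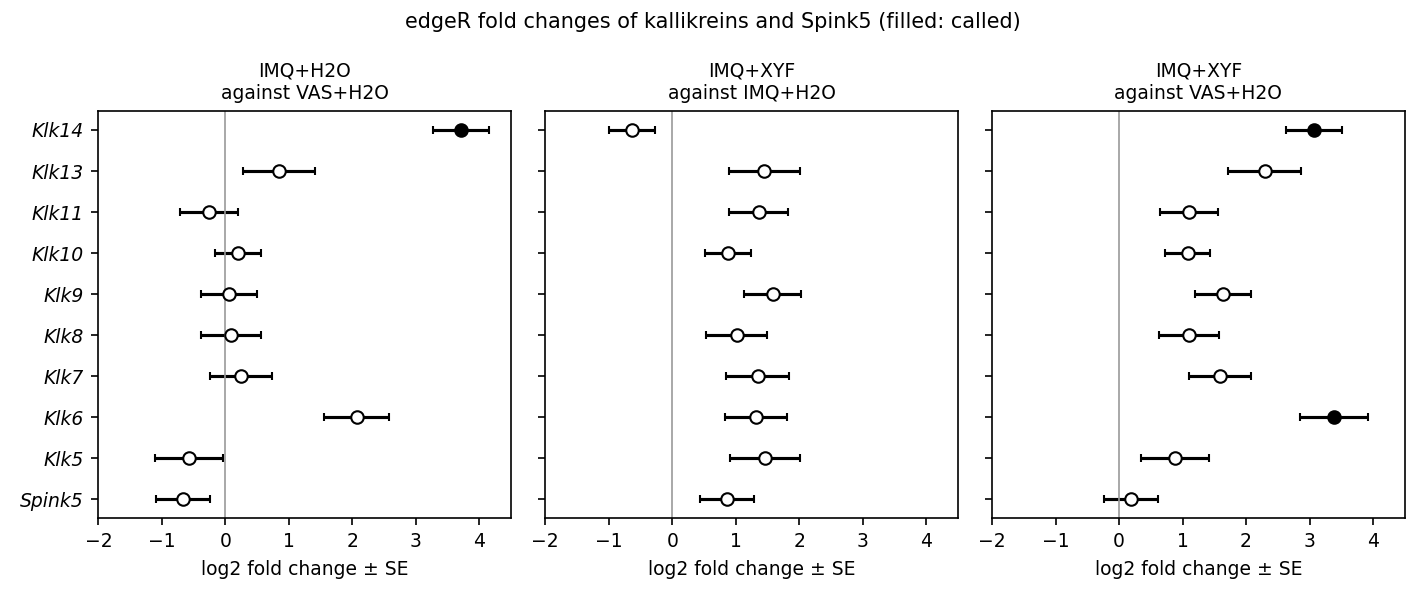
Log2 fold change (horizontal axis) with SE of each gene in the 3 comparisons, from the edgeR fit over all 9 libraries; filled points passed the test. Klk14 passed in both comparisons with the control and Klk6 against the control in IMQ+XYF, whereas 9 of 10 genes lay to the right of 0 between IMQ+XYF and IMQ+H2O without passing.

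Since LEKTI holds the proteases in check, the level of kallikreins relative to Spink5 was computed in each library as a ratio of CPM per kilobase. The summed 9 kallikreins stood at 6.02, 2.46 and 1.80 times Spink5 in VAS+H2O, at 6.01, 5.12 and 5.95 times in IMQ+H2O and at 6.06, 6.12 and 10.8 times in IMQ+XYF. The controls ranged widely, and their replicate 1 lay level with the model libraries. The IMQ+XYF libraries all lay above the model libraries, but 2 of the 3 by little, and 3 against 3 libraries cannot give a two-sided exact permutation p below 0.1. Klk7 stood at 1.97, 1.75 and 1.98 times Spink5 in the model and at 2.29, 2.17 and 3.69 times in IMQ+XYF. For Klk6 the ratio was 0.292, 0.161 and 0.0684 in VAS+H2O and 0.945, 0.937 and 1.15 in IMQ+H2O, where the groups were well apart. It was 0.923, 1.03 and 2.604 in IMQ+XYF, which overlapped with the model. For Klk14 it was 0.0584, 0.0726 and 0.0507 in IMQ+H2O and 0.0096, 0.0415 and 0.0344 in IMQ+XYF. This ratio was lower in all 3 IMQ+XYF libraries, although the levels of Klk14 and of Spink5 each overlapped between these groups. These are ratios of transcripts and say nothing of protease activity.

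**Figure D3:**
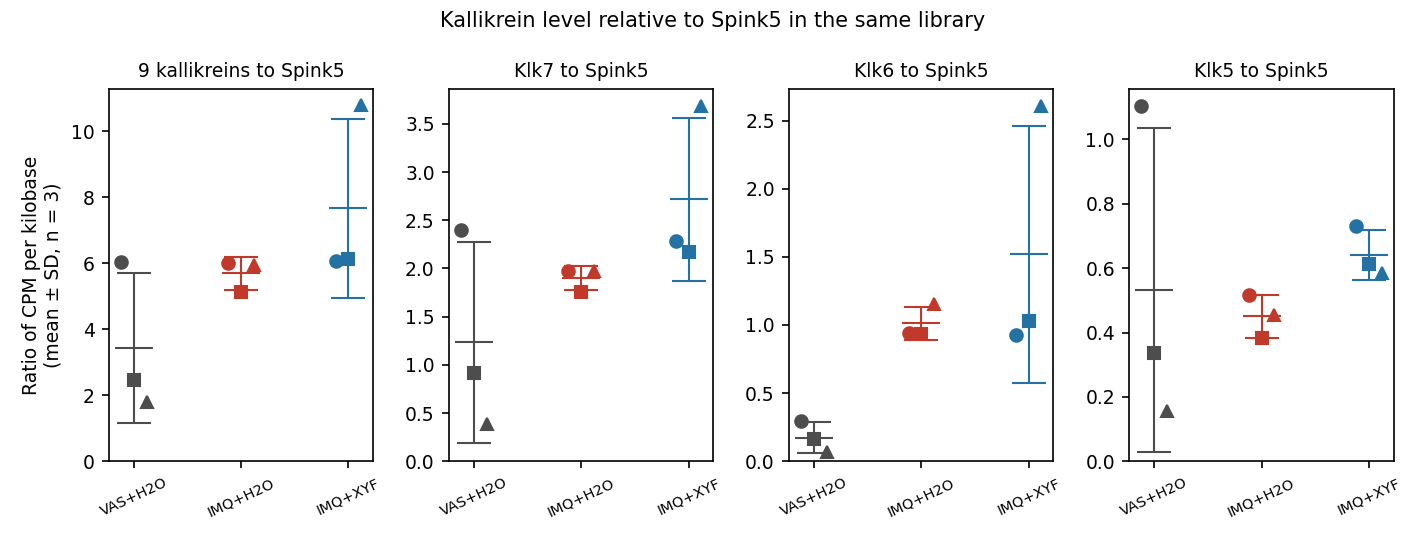
Ratio of kallikrein to Spink5 level (CPM per kilobase) in each library, for the 9 kallikreins summed, Klk7, Klk6 and Klk5; circles, squares and triangles are replicates 1, 2 and 3, and bars the mean ± SD (n = 3). Klk6 relative to Spink5 was at most 0.292 in the control and at least 0.923 in both imiquimod groups.

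Markers of keratinocyte states were measured beside the kallikreins, since both are epidermal. The 10 markers of differentiating keratinocytes summed to 2010 to 5991 CPM in VAS+H2O, 1558 to 2306 CPM in IMQ+H2O and 3588 to 16054 CPM in IMQ+XYF. The lowest control value was that of replicate 3, and the highest of all was that of IMQ+XYF replicate 1, where Klk5, Klk7, Klk8, Klk11 and Spink5 also had their highest level. The 7 stress keratinocyte markers (Krt6a, Krt6b, Krt16, Krt17, Sprr1b, Sprr2d and Sprr2h) summed to 231 to 381 CPM, 511 to 827 CPM and 619 to 3178 CPM. Their highest value was that of IMQ+XYF replicate 3, where Klk6, Klk9, Klk10 and Klk13 had theirs. The 6 basal markers summed to 2310 to 4194 CPM, 1685 to 2553 CPM and 2259 to 7692 CPM. Their highest value, like that of the differentiating markers, was that of IMQ+XYF replicate 1. None of these markers stood at 0 in any library, and the part of these cells in the kallikrein levels was not tested.

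Relative to these lists too, the Klk6 values of the model lay above those of the control without overlap. Per 1000 CPM of differentiating markers it stood at 1.18 to 1.498 CPM in the control and 11.9 to 14.2 CPM in the model, and per 1000 CPM of stress markers at 7.80 to 28.9 CPM and 35.6 to 47.4 CPM. The same ratio to stress markers was 30.4 to 45.1 CPM in IMQ+XYF, which overlapped with the model. Gene by gene, the 7 stress markers had a median log2 difference of 2.53 with imiquimod (0.35 to 3.31), beside 2.07 for Klk6. Their sum, with a model mean 1.99 times that of the control, is weighted to its most abundant genes. The higher ratio therefore does not show that Klk6 rose more than the stress markers did. Against the control, IMQ+XYF had a median of 4.66 for these markers and 3.39 for Klk6. Klk14 per 1000 CPM of stress markers was 0.246 to 0.395 CPM in the control, 1.75 to 2.32 CPM in the model and 0.337 to 1.45 CPM in IMQ+XYF. Its values in IMQ+XYF were below those of the model without overlap, also relative to basal and to differentiating markers. The level of Klk14 itself overlapped between these groups (0.622 to 1.07 and 1.01 to 1.92 CPM). The mean marker sums in IMQ+XYF were 2.80 (stress), 2.28 (basal) and 3.93 (differentiating) times those of the model. Lower ratios therefore do not show a lower level of Klk14. Klk7 per 1000 CPM of differentiating markers was 10.4 to 12.2 CPM in the control and 25.6 to 34.6 CPM in the model. Klk5, Klk8, Klk9 and Klk13 relative to these markers were also higher in the model without overlap, whereas Klk10, Klk11 and Spink5 overlapped. The summed differentiating markers overlapped between these groups, with a model mean 0.43 times that of the control. Relative to basal and to stress markers, Klk7 overlapped between model and control, with ratios of model to control means of 1.81 and 0.54. The higher ratio to differentiating markers therefore does not show a higher level of Klk7. In IMQ+XYF Klk7 per 1000 CPM of differentiating markers was 13.7, 18.9 and 47.7 CPM, on both sides of the model libraries. Spink5 relative to differentiating markers was lower in IMQ+XYF (15.1 to 32.7 CPM per 1000) than in the model (32.7 to 48.1 CPM per 1000), the ranges all but touching.

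**Figure D4:**
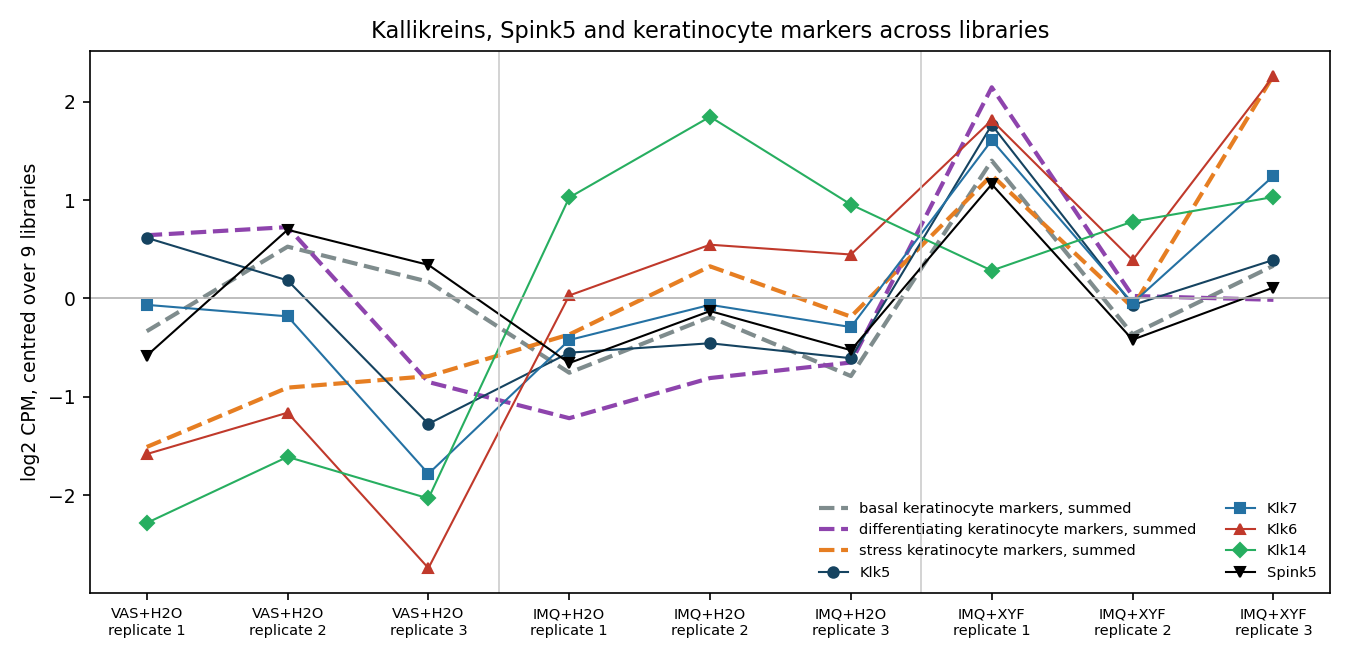
Log2 CPM of Klk5, Klk7, Klk6, Klk14 and Spink5 in each library, centred over the 9 libraries, with the summed markers of 3 keratinocyte states as dashed lines. Klk5, Klk7 and Spink5 peak in IMQ+XYF replicate 1, as do both the differentiating and the basal markers. Klk6 peaks with the stress markers in IMQ+XYF replicate 3, and Klk14 peaks in IMQ+H2O replicate 2.

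Position in the cluster did not order the changes. The genes with the greatest log2 difference with imiquimod, Klk14 and Klk6, lay 134 kb apart from start to start, with 7 annotated kallikreins between them, and Klk5, the neighbour of Klk6, had a log2 difference of -0.57. The antisense gene 2310002F09Rik runs on the reverse strand from the end of Klk14 to the start of Klk8 and shares 287 exonic bases with Klk14 and 382 with Klk8. It had 38, 38 and 64 counts in VAS+H2O, 17, 14 and 24 in IMQ+H2O, and 99, 23 and 46 in IMQ+XYF. Its log2 difference was -1.03 ± 0.40 with imiquimod (edgeR adjusted p = 0.195), opposite in sign to that of Klk14. Whether counting used the strand is not given in the sources used here, so reads in the shared bases of these genes cannot be told apart. The 9 kallikreins are otherwise distinct in sequence: no stretch of 50 bases of their transcripts occurred in another gene, except 5 of 1172 in Klk14. Spink5 lies outside this cluster, on chromosome 18. Of 17 further tissue kallikreins, 10 had no count in any library and 1, Klk12, had enough counts to be tested. Klk12 lies between Klk13 and Klk11 and had 2 to 66 counts per library. It was not called in any comparison.

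**Figure D5:**
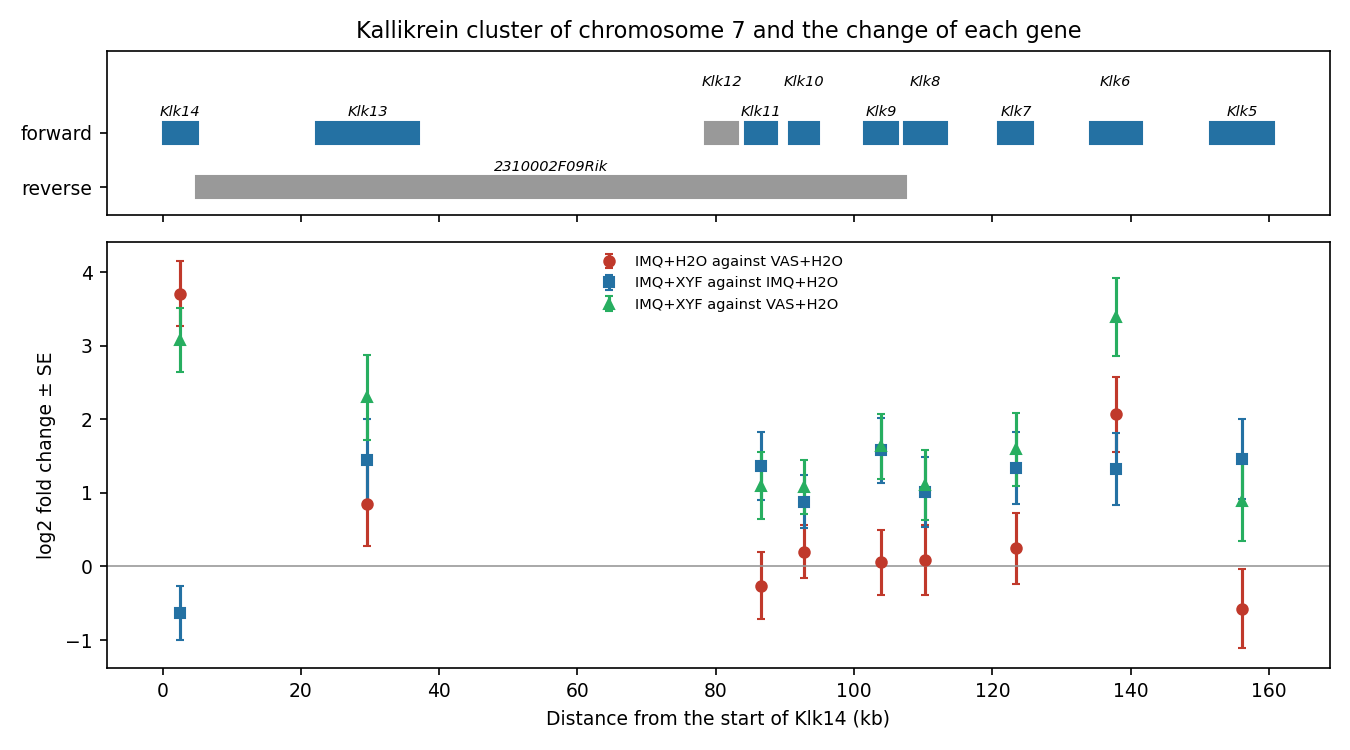
Upper panel, genes of the kallikrein cluster by strand, as distance in kb from the start of Klk14 (members in blue, other genes in grey, short predicted genes left out); lower panel, log2 fold change with SE of each member at its position in the 3 comparisons. Klk14 at the left end and Klk6 near the right end stand highest against the control, with smaller differences in between.

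Members were also compared by the shape of their profile, as the root mean square difference of centred log2 CPM over the 9 libraries. Klk7 was closest to Klk9 (0.268) and to Klk8 (0.273), and Klk5 to Klk11 (0.302). Klk14 and Spink5 were farthest apart (1.70). Among 14524 other genes, those most like Klk5 were Ivl (0.167), Il1f5 (0.201) and Krtdap (0.209), and Ivl encodes involucrin of the cornified envelope. Most like Klk7 were Cnfn (0.261), Cers3 (0.325) and Teddm3 (0.328), like Klk8 Sdcbp2 (0.205), Sdr9c7 (0.226) and Lypd5 (0.302), like Klk9 Cnfn (0.207), Endou (0.280) and Lypd5 (0.349), and like Klk11 Gsdma (0.233), Nipal4 (0.238) and Slc26a9 (0.251). Klk6 was nearest to Slpi (0.371), Slc7a11 (0.451) and Krt16 (0.524), and Klk13 to Has3 (0.346), Gjb6 (0.403) and Rbp2 (0.469). Klk10 was nearest to Krt17 (0.139), Kif11 (0.204) and Cdca8 (0.241), of which Krt17 is a keratin of stressed epidermis. Klk14 was nearest to the chemokine genes Ccl17 (0.249) and Ccl22 (0.370) and to Lcn2 (0.360), which encodes lipocalin 2. Spink5 was nearest to Tns4 (0.0890), Trp63 (0.120) and Cdh1 (0.161), and Trp63 encodes the transcription factor p63 of basal keratinocytes. All these values come from the same 9 libraries and describe likeness only.

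Substrates and partners of the kallikreins were read from fixed lists. The 5 adhesion proteins of corneodesmosomes (Cdsn, Dsg1a, Dsg1b, Dsg1c and Dsc1) were tested and none was called by edgeR in any comparison. At an unadjusted p under 0.05 in edgeR there were 2 lower with imiquimod and 5 higher with XYF, and DESeq2 called 1 lower with imiquimod (Dsg1a) and 3 higher with XYF. Of all 22430 tested genes, 4694 had such a p with imiquimod and 2633 with XYF, in either direction. DESeq2 called 949 of 24768 genes with imiquimod, in either direction, and 0.797% of all genes higher with XYF. All 5 had lower means in IMQ+H2O than in the control, with a median log2 difference of -1.02, and all 5 had higher means in IMQ+XYF than in IMQ+H2O, with a median of 1.82. Dsg1a, a desmoglein cut by kallikreins, was measured at 181, 308 and 136 CPM in VAS+H2O, 40.0, 74.5 and 67.6 CPM in IMQ+H2O, and 452, 104 and 88.1 CPM in IMQ+XYF. Both groups of non-model libraries lay above the model, and IMQ+XYF replicate 1 was far above the rest. The difference of the model from the control was -1.78 ± 0.63 (edgeR adjusted p = 0.163).

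Of 10 other skin proteases, 7 were tested and 0 called in any comparison by edgeR or by DESeq2. At an unadjusted p under 0.05 in edgeR there was 1 with imiquimod (Prss8), 1 with XYF (Tmprss13) and 0 against the control in IMQ+XYF. St14, the gene of matriptase, which can activate kallikrein proenzymes, differed by -0.14 ± 0.24 with imiquimod and by 0.28 ± 0.24 with XYF. Of 12 other protease inhibitors, 10 were tested and 1 passed, Slpi, which encodes a secreted inhibitor of leukocyte and epithelial proteases. Slpi was measured at 4.15, 6.42 and 3.52 CPM in VAS+H2O, at 18.5, 19.2 and 29.2 CPM in IMQ+H2O and at 48.0, 30.6 and 59.5 CPM in IMQ+XYF. The groups formed 3 steps without overlap. It rose by 2.26 ± 0.32 with imiquimod (edgeR adjusted p = 0.0247) and stood 3.30 ± 0.33 above the control in IMQ+XYF (adjusted p = 0.0117), whereas the difference between XYF and water, 1.04 ± 0.31, did not pass (adjusted p = 0.364). Of F2rl1, the gene of PAR2, and 3 mediators (Camp, Il1b and Tslp), none was called by edgeR in any comparison, 1 had an unadjusted p under 0.05 with XYF and 1 in IMQ+XYF against the control, and DESeq2 called 1 in the latter. In that comparison DESeq2 called 1.75% of all genes higher. F2rl1 differed by -0.56 ± 0.41 with imiquimod and by 0.50 ± 0.41 with XYF.

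Marker levels of some other cell types differed between the groups as well, which does not show that their cell numbers changed. The 6 neutrophil markers summed to 7.69 to 26.2 CPM in VAS+H2O, 209 to 655 CPM in IMQ+H2O and 172 to 479 CPM in IMQ+XYF. With imiquimod edgeR called 3 of the 6 higher and DESeq2 all 6, against 0.646% and 2.15% of all genes. All 6 lay higher without overlap, against 15.1% of all tested genes. The 7 matched hair follicle markers summed to 80.4 to 299 CPM, 0.858 to 20.8 CPM and 0.305 to 3.93 CPM, with 4 called lower. Markers of sebaceous gland (7 genes, 4017 to 12447 CPM over all libraries), fibroblast (6 genes, 10367 to 25353 CPM) and skeletal muscle (5 genes, 61.2 to 1010 CPM) had none called with imiquimod by edgeR or DESeq2, with 2, 2 and 0 genes at an unadjusted p under 0.05 in edgeR. The sebaceous sums were nonetheless lower without overlap, at 8252 to 12447 CPM in VAS+H2O and 5790 to 6747 CPM in IMQ+H2O. Those of fibroblast and muscle markers overlapped. Of 5 cartilage markers (231 to 1438 CPM) Matn1 stood at 0 in every library. Of the 4 tested, edgeR called 1 lower with imiquimod and DESeq2 4, all 4 had an unadjusted p under 0.05 and groups that did not overlap, and the median log2 difference was -1.96. DESeq2 called 949 of 24768 genes with imiquimod, in either direction. Of all 22430 tested genes, edgeR called 78 lower with imiquimod and 4694 had an unadjusted p under 0.05. Groups lay lower without overlap for 3695 of them. Between IMQ+XYF and IMQ+H2O the muscle markers summed to 61.2 to 338 CPM and 500.3 to 987 CPM. All 5 were lower in the mean, with a median log2 difference of -1.71, none called by edgeR or DESeq2 and 4 at an unadjusted p under 0.05 in edgeR. The cartilage markers summed to 447 to 1410 CPM in IMQ+XYF and 231 to 364 CPM in IMQ+H2O. All 4 tested were higher in the mean, with a median log2 difference of 1.54, none called by edgeR, 3 called by DESeq2 and 4 at an unadjusted p under 0.05 in edgeR. Between these groups 2633 of all 22430 tested genes had an unadjusted p under 0.05 in edgeR, and DESeq2 called 0.797% of all genes higher. The part of these cells in the kallikrein and Spink5 levels was not tested.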

How the data were processed

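The deposited table gives whole-number counts of reads per Ensembl gene for 9 libraries. The submitters' processing notes name FastQC, STAR 2.5, Cuffnorm and DESeq 1.22.1 and the build GRCm38, and the study's methods name Ensembl release 90. The tool that counted reads and its handling of strand and of multiple alignments are not given in the sources used here. From these counts, edgeR 4.0.16 (R 4.3.3) was run with filterByExpr (22430 of 52550 genes kept, all 10 members among them), TMM scaling and 1 quasi-likelihood fit over all 9 libraries with a coefficient per group. P-values were adjusted by Benjamini-Hochberg over all tested genes. SEs were obtained by dividing the size of each log2 fold change by √F. The common biological coefficient of variation was 0.296. DESeq2 1.42.0 on the unfiltered counts was an alternative, as were DESeq2 size factors, no filter, fits of the 2 compared groups only, a replicate block and leaving out each library.

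Library totals ran from 28756305 to 79836881 counts, so the floor of 3 counts corresponded to 0.0373 to 0.103 CPM. Exon lengths are merged exons of GENCODE vM21. Profile likeness used log2 CPM with a prior count of 2, centred over libraries, among genes with a mean of at least 1 CPM and leaving out Gm and Rik symbols, and the 3 nearest are named for each member. Every member is described, and listed genes are named where they passed or show what a list is. Of the listed symbols 1, Krt85, was not matched. The fits were also run on simulated data, with no outcome given here, and nothing above rests on that run. The members, the gene lists and the tests were chosen with earlier results of these data known, so nothing here is independent of them.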

Additional observations from a re-analysis of the deposited data

How the results depend on the processing

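Of 420 results of single members under 14 alternatives, 384 kept their direction and their side of the threshold, 16 lost a call, 13 gained one and 7 changed sign. The changes of sign were, for imiquimod, Klk10 without VAS+H2O replicate 1 (-0.0566), Klk7, Klk8 and Klk9 without VAS+H2O replicate 3 (-0.13, -0.26 and -0.28) and Klk9 without IMQ+H2O replicate 1 (-0.05), and, for IMQ+XYF against VAS+H2O, Spink5 without VAS+H2O replicate 1 (-0.09) and without IMQ+XYF replicate 1 (-0.38). None of these had passed the test. Without 1 library the log2 differences ran from -0.0566 to 0.45 for Klk10, -0.13 to 0.52 for Klk7, -0.26 to 0.46 for Klk8 and -0.28 to 0.27 for Klk9 with imiquimod, and from -0.38 to 0.54 for Spink5 in IMQ+XYF against VAS+H2O. Members called with imiquimod numbered 1, and 2 with DESeq2 and in the fit of 2 groups only, with 0 to 2 when a library was left out. Between IMQ+XYF and IMQ+H2O the number was 0, 1 with DESeq2, and 0 to 0 when a library was left out. Against the control in IMQ+XYF it was 2, 6 with DESeq2, 0 in the fit of 2 groups only, and 0 to 7 when a library was left out. The cause of these changes was not tested. Over the 14 alternatives the adjusted p of Klk14 with imiquimod ran from 6.53e-09 to 0.0765.

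Over all genes, calls with imiquimod numbered 223 (949 with DESeq2, 496 in the fit of 2 groups, 25 to 455 without 1 library), between IMQ+XYF and IMQ+H2O 2 (225, 1, and 0 to 4), and in IMQ+XYF against VAS+H2O 270 (743, 33, and 12 to 592).

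The replicate numbers gave no sign of a pairing of libraries. Correlations of same-numbered deviations ran from -0.183 to 0.125, with 1 of 9 above 0.1. Those of differently numbered libraries ran from -0.161 to 0.277, and 1 of 9 libraries correlated best with its own number. With 3 libraries per group, this cannot exclude a pairing. With the replicate number as a block, members called were 1, 0 and 0 in the 3 comparisons, and all genes called were 86, 0 and 54. Depth limits Klk14, at 3 to 7 counts in the controls.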
